A study of Mus musculus with 4 samples.

Results

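The ETS family transcription factors that CD69+CD4+CD8+ (CD69+DP) thymocytes express alongside *Elk4*, together with *Srf*, were followed here across control and Foxa1/2cKO mice. The 10 genes are *Elk1*, *Elk3*, *Elk4*, *Srf*, *Ets1*, *Ets2*, *Fli1*, *Gabpa*, *Elf1* and *Elf2*, out of 24421 genes listed. They were chosen by name as family members expressed in thymocytes, so their being expressed is not a result, and *Elk4* was selected on a difference between the groups that was already known. All 10 passed the filter on low values, an FPKM (fragments per kilobase of transcript, divided by a total for each sample) of at least 1 in at least 2 samples, which left 10776 genes to test.

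The series holds 4 RNA-seq samples of sorted CD69+DP cells from the thymus of 6-week-old mice on a C57BL/6 background, 2 for each genotype, each sorted from different mice. Both genotypes carry the floxed alleles Foxa1fl/flFoxa2fl/fl. The controls are CD4Cre-, and the Foxa1/2cKO mice, which the labels call CoKO, are CD4Cre+, so that Cre under the *Cd4* promoter deletes *Foxa1* and *Foxa2* in T-lineage cells from the DP stage onwards. The controls carry no Cre, so the presence of Cre and the loss of both genes cannot be told apart. The comparison asks which genes differ between DP cells undergoing positive selection with and without these forkhead factors.

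ETS factors share a winged helix-turn-helix DNA-binding domain that recognises a GGAA or GGAT core. ELK1, ELK3 and ELK4 form the ternary complex factor (TCF) subfamily, which binds DNA jointly with a dimer of SRF and is activated when ERK phosphorylates it. SRF binds the CArG box, and works either with TCF proteins at immediate early genes or with the myocardin-related factors (MRTFs) at cytoskeletal genes. In the thymus, ELK4 and ELK1 act downstream of the TCR during positive selection, ETS1 is needed for normal T-cell development, and GABPA forms the GABP complex with a partner that lacks a DNA-binding domain.

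The promoter sequences of *Elk4* and *Srf* are shown because these bases hold the recognition sequences of the family itself. They were taken from RefSeq (GRCm38.p6, the assembly also called mm10), read 5′ to 3′ on the strand of the gene, from 130 to 14 bases before the start of the first annotated transcript. Both stretches end before the first annotated exon base. Capitals mark CCGGAAG, a form of the ETS site, and the CArG box.
*Elk4* promoter, chr1:132007490-132007606, plus strand: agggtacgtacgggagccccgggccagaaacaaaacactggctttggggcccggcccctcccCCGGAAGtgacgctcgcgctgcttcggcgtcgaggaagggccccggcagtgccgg
*Srf* promoter, chr17:46556176-46556292, minus strand: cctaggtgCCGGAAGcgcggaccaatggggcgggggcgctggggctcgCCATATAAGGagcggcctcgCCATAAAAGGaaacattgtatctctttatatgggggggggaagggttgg
*Gabpa*, the site and its flanks only, chr16:84835020-84835048, plus strand: gagggtaagtgCTTCCGGgtccctcagct

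In *Elk4* the CCGGAAG began 68 bases before the start. In *Srf* it began 122 bases before the start, followed by CArG boxes that began at 82 and 62 bases before it. In *Gabpa* the site lay on the opposite strand, in a stretch that annotated exons of *Gabpa* and of its neighbour *Atp5j* cover. Windows of 250 bases before and 50 after the start were given for 8 of the 10 members, 12 windows in all, and *Ets1* and *Fli1* had none. Searched on both strands, CCGGAAG was in 1 window each of *Elk4*, *Srf* and *Gabpa*, out of the 12, and in 8.86% of the 32851 promoter windows of the table. No site overlapped another. The CArG box (read alike on both strands and given once) was in the *Srf* window alone among the members and in 1.63% of all windows. TGTTTAC, a sequence that forkhead factors recognise, was in no member window and in 3.65% of all windows. These matches describe the letters in the windows and are not measurements of binding.

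The markers of the sorted cells, *Cd4*, *Cd8a*, *Cd8b1*, *Cd69*, *Cd3e* and *Rag1*, were all present, with a summed FPKM of 2294 and 2335 in controls and of 2378 and 2971 in Foxa1/2cKO 1 and 2. Neither *Foxa1* nor *Foxa2* had a value above 0 in any of the 4 samples, including the controls, which leaves the genotypes unchecked by these data. The reads recovered for a sample numbered 10518665 at the lowest and 14649262 at the highest. The sample Foxa1/2cKO 2 stood apart from the other 3 in 2 lists of markers. The mature single-positive (SP) markers *Ccr7*, *S1pr1*, *Klf2* and *Il7r* were lowest there. These 4 genes summed to 166 and 193 FPKM in the controls, against 185 FPKM in Foxa1/2cKO 1 and 75.9 FPKM in Foxa1/2cKO 2. All 5 cycling markers (*Mki67*, *Top2a*, *Ccnb1*, *Cdk1* and *Mcm5*) were lowest in Foxa1/2cKO 2, where they summed to 133 FPKM. Foxa1/2cKO 1 had 402 FPKM and the controls had 341 and 358 FPKM. In a bulk sample, fewer cells of a type and less RNA per cell cannot be told apart.

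*Elk4* lies on the plus strand of chromosome 1 (132007607 to 132032612). Its level was 42.7 and 33.5 FPKM in controls 1 and 2, and 48.4 and 55.5 FPKM in Foxa1/2cKO 1 and 2. The highest control was below the lowest Foxa1/2cKO sample, and the nearest pair, control 1 and Foxa1/2cKO 1, were closer to each other than the controls were. The group means were 38.1 ± 6.56 FPKM in control and 51.99 ± 5.02 FPKM in Foxa1/2cKO (SD, n = 2 each), a ratio of 1.36. On the log2(FPKM + 1) scale used for all differences below, the difference was 0.45 with a standard error of 0.15. Since *Elk4* was chosen with this difference known, no p is attached to it. The values rested on 1668 to 2349 reads a sample.

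The spread between the controls was wider for *Elk4* than for any other member. Control 1 exceeded control 2 by 0.34 on the log2 scale, whereas in the other 9 members the controls differed by at most 0.10, and the median gap of all tested genes was 0.0762. The difference of *Elk4* therefore depended on which control was used. It was 0.27 without control 2 and 0.62 without control 1. Without Foxa1/2cKO 2, the sample that stood apart, it was 0.35, and without Foxa1/2cKO 1 it was 0.54. The order of the samples was kept when FPKM were rescaled by their upper quartile or to the total of recovered reads.

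In *Elk1* and *Elk3*, the other TCF genes, the groups overlapped. *Elk3*, a TCF that can act as a repressor until ERK phosphorylates it, was at 25.7 and 23.9 FPKM in controls and at 25.7 and 30.1 FPKM in Foxa1/2cKO. The groups met at control 1 and Foxa1/2cKO 1, and Foxa1/2cKO 2 was highest. Its log2 difference was 0.16 (standard error 0.11, 95% interval -0.14 to 0.46, limma adjusted p = 0.863). *Elk1* was the lowest member, at 7.61 and 7.83 FPKM in controls and at 7.41 and 7.98 FPKM in Foxa1/2cKO. Its groups overlapped fully, with a log2 difference of -0.0041 and a 95% interval of -0.27 to 0.27. The interval leaves room for changes of about this size in either direction.

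Among the 3 TCF genes, *Elk4* made up the largest part of the summed FPKM in every sample. Its share was 56.2% and 51.3% in controls 1 and 2, and 59.4% and 59.3% in Foxa1/2cKO 1 and 2. *Elk3* made up 33.8% and 36.7% in controls and 31.5% and 32.2% in Foxa1/2cKO, and *Elk1* made up the rest. These shares move with *Elk4* itself and are a description. *Srf*, the partner with which TCF proteins bind DNA, was at 33.1 and 32.2 FPKM in controls and at 32.2 and 39.2 FPKM in Foxa1/2cKO. Only Foxa1/2cKO 2 exceeded the controls, and the log2 difference was 0.12 (standard error 0.12, 95% interval -0.20 to 0.43). Set against *Srf* in the same sample, *Elk4* stood at 1.29 and 1.04 in controls and at 1.50 and 1.42 in Foxa1/2cKO, as a ratio of FPKM.

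**Figure D1:**
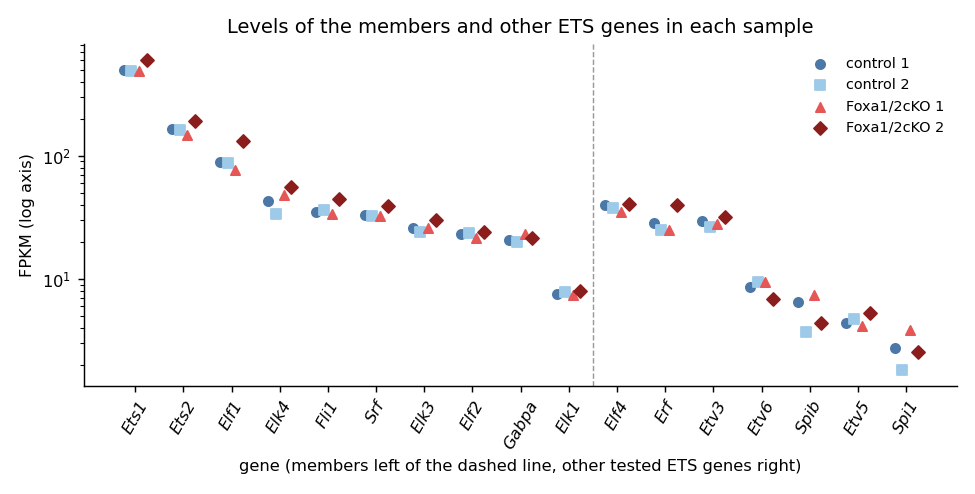
FPKM, on a log axis, of the 10 members (left of the dashed line) and of the 7 other ETS genes that passed the filter (right), with 1 point for each of the 4 samples. *Ets1* sat at 489 to 605 FPKM, far above all others, and the samples of most genes lay close together.

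*Ets1*, *Ets2* and *Elf1* were the most abundant members. *Ets1* was at 499.7 and 489 FPKM in controls and at 491 and 605 FPKM in Foxa1/2cKO, from 26826 to 37846 reads a sample. Control 1, control 2 and Foxa1/2cKO 1 lay close together, and Foxa1/2cKO 2 lay above them. The log2 difference of 0.14 had a standard error of 0.13 and a 95% interval of -0.20 to 0.48. *Ets2* was at 164 and 162 FPKM in controls and on either side of them, at 148 and 191 FPKM, in Foxa1/2cKO, with a log2 difference of 0.041 and a 95% interval of -0.34 to 0.42. *Elf1*, whose protein belongs to the ELF subfamily and is active in lymphocytes, showed the widest gap between Foxa1/2cKO samples of any member. It was at 89.3 and 87.3 FPKM in controls, at 76.8 FPKM in Foxa1/2cKO 1 and at 132 FPKM in Foxa1/2cKO 2. The log2 difference of *Elf1* was 0.19 with a standard error of 0.26, so the groups could not be separated.

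*Fli1*, a close relative of *Ets1*, lies beside it on chromosome 9, on the minus strand from 32422204 to 32542861, with *Ets1* on the plus strand from 32636221 to 32757820. *Fli1* was at 35.3 and 36.6 FPKM in controls and at 33.8 and 44.8 FPKM in Foxa1/2cKO. The samples fell in the same way as those of *Ets2* and *Elf1*, with Foxa1/2cKO 1 lowest and Foxa1/2cKO 2 highest. Its log2 difference was 0.11 (standard error 0.15, 95% interval -0.28 to 0.51). In each sample *Ets1* was at 13.4 to 14.5 times the FPKM of *Fli1*.

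*Gabpa*, which encodes the DNA-binding subunit of GABP, was at 20.8 and 19.8 FPKM in controls and at 23.3 and 21.6 FPKM in Foxa1/2cKO. It was the one member besides *Elk4* whose groups did not overlap, and the one member that was not highest in Foxa1/2cKO 2. The log2 difference was 0.14 (standard error 0.092, 95% interval -0.10 to 0.38, limma adjusted p = 0.863). After scaling to recovered reads, an alternative chosen after seeing the data, the groups of *Gabpa* overlapped and those of *Elk3* did not, and under upper-quartile scaling neither gene's groups overlapped. *Elf2*, a further ELF subfamily gene, was at 23.1 and 23.8 FPKM in controls and at 21.5 and 24.2 FPKM in Foxa1/2cKO, with a log2 difference of -0.036 and a 95% interval of -0.29 to 0.22.

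Since FPKM are per length, levels can be set side by side between genes. Ordered by mean FPKM over the 4 samples, the members ran *Ets1* (521), *Ets2* (166), *Elf1* (96.2), *Elk4* (45.1), *Fli1* (37.6), *Srf* (34.2), *Elk3* (26.4), *Elf2* (23.2), *Gabpa* (21.4) and *Elk1* (7.71). The ranges over samples overlapped for *Elk4* and *Fli1*, for *Fli1* and *Srf*, for *Elk3* and *Elf2*, and for *Elf2* and *Gabpa*. Compared within each sample, *Fli1* was above *Srf* and *Elk3* above *Elf2* in all 4 samples. In control 2 *Elk3* and *Elf2* were close, at 23.9 and 23.8 FPKM. *Elk4* was below *Fli1* in control 2, and *Elf2* was below *Gabpa* in Foxa1/2cKO 1, so the order of these 2 pairs was not kept in every sample. The ranges of the other neighbouring pairs did not overlap. *Ets1* alone made up 48.5% to 49.6% of the summed FPKM of the 26 ETS genes looked up, and *Ets1*, *Ets2* and *Elf1* together made up 72.3% to 74.5%.

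No difference passed the test among the members tested. Counting the 9 members other than *Elk4*, 0 had an adjusted p under 0.05 in limma, where 1 of the 10776 tested genes did (0.00928%), the long non-coding RNA *2610035D17Rik*. At an unadjusted p under 0.05 the count was 0 of 9 in limma, against 4.55% of all tested genes, and 0 of 9 by limma-voom on recovered reads. Adjusted p of the 9 ranged from 0.863 to 0.996. The log2 difference was above 0 in 7 of the 9, with a median of 0.12 beside a median of 0.0051 over all tested genes. Of the 10 members, *Elk4* and *Gabpa* had both Foxa1/2cKO samples above both controls, and none had both below. Over all tested genes these shares were 18.9% and 17.8%, and for *Elk4* the count is part of how it was chosen.

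What the members shared was the position of 1 sample. Foxa1/2cKO 2 was the highest sample in 9 of the 10, *Gabpa* being the exception, and it was the highest sample in 40.5% of all tested genes. *Elk4* is among those 9 and was chosen with its group difference known, so this count and those after rescaling below are a description. The deposited FPKM were not scaled to the reads alone. In Foxa1/2cKO 2 the total that divides the FPKM, found from their steps, was 11093927, below the 11358421 reads recovered, whereas in the other 3 samples it was above the reads recovered (in Foxa1/2cKO 1, 10796528 against 10518665). This places FPKM of Foxa1/2cKO 2 higher against the other samples than division by recovered reads would. Under upper-quartile scaling and under scaling to recovered reads the count was 7 of 10 in both cases, with *Elk1* and *Elf2* also dropping out, beside 31.6% and 30.3% of all tested genes. In the log2 ratio of Foxa1/2cKO 2 to Foxa1/2cKO 1, *Elf1* was at 0.77, *Fli1* at 0.39, *Ets2* at 0.37, *Ets1* at 0.30, *Srf* at 0.27, *Elk3* at 0.22 and *Elk4* at 0.19. The same sample had the lowest summed FPKM of mature SP and of cycling markers given above. Its high place was not particular to the members. Of the 6 CD69+DP markers, 4 were highest there, with log2 ratios to Foxa1/2cKO 1 of 0.54 (*Cd8b1*), 0.48 (*Cd8a*), 0.37 (*Cd4*) and 0.17 (*Cd69*). *Cd3e* and *Rag1* were not. Among the other tested ETS genes, *Elf4*, *Erf*, *Etv3* and *Etv5* were highest there, and *Etv6*, *Spi1* and *Spib* were not. The part of mature SP or cycling cells in the members' values was not tested.

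The sign of the difference followed this sample. Without Foxa1/2cKO 2, the log2 difference was above 0 in 2 of the 9 members, *Elk3* at 0.050 and *Gabpa* at 0.19, and the median of the 9 was -0.051. *Elf1* then stood at -0.20, *Ets2* at -0.14, *Fli1* at -0.083, *Srf* at -0.019 and *Ets1* at -0.0096. Without Foxa1/2cKO 1, all 9 were above 0 with a median of 0.26, and 6 of them (*Elk3*, *Srf*, *Ets1*, *Ets2*, *Fli1* and *Elf1*) had an adjusted p under 0.05 in limma. That fit rests on 1 Foxa1/2cKO sample, assumed to vary like the controls, and it called 2559 of the 10776 genes. The differences of these 6 genes are thus those of Foxa1/2cKO 2 from the controls and were not shared by Foxa1/2cKO 1, which lay below both controls in *Ets2*, *Elf1* and *Fli1*.

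**Figure D2:**
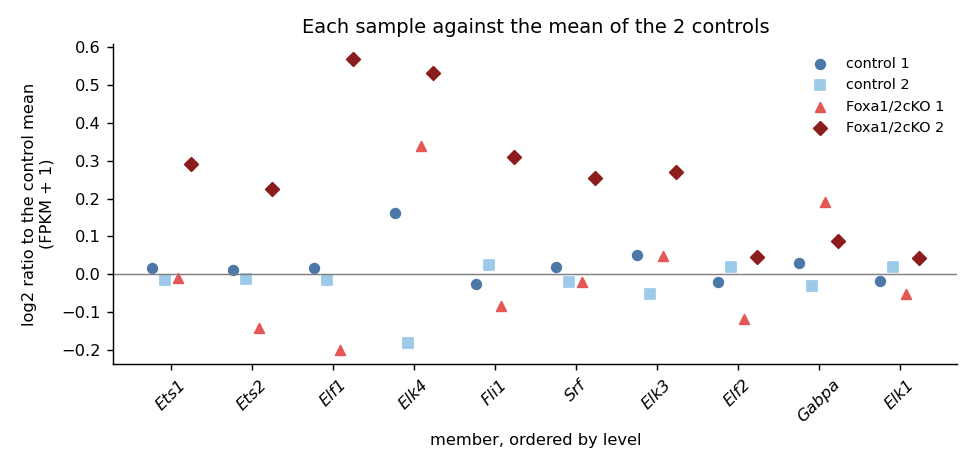
Log2 ratio of each sample to the mean of the 2 controls, on FPKM + 1, for the 10 members ordered by level, with 1 point a sample. Foxa1/2cKO 2 is the highest point in 9 of 10 members, and only *Elk4* and *Gabpa* have both Foxa1/2cKO points above both control points. *Elk4* is counted in both and was chosen with its difference known.

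By the distance between profiles over the 4 samples, each centred on its own mean of log2(FPKM + 1), the tested genes most like *Elk4* were *Srgn* (distance 0.058), *Hmbox1* (0.066) and *Car15* (0.083). *Srgn*, which encodes the granule proteoglycan serglycin, was at 114 and 92.97 FPKM in controls and at 128 and 145 FPKM in Foxa1/2cKO. *Hmbox1*, a homeobox gene, was at 12.4 and 9.15 FPKM in controls and at 14.2 and 15.5 FPKM in Foxa1/2cKO. *Car15*, a carbonic anhydrase gene, was at 4.66 and 3.20 FPKM and at 5.36 and 6.44 FPKM in the same order. In all 3, as in *Elk4*, control 2 was lowest and Foxa1/2cKO 2 highest. They were picked for this likeness, so the shared order is not a result. No other member was among the nearest genes. The nearest of them, *Elk3*, was at a distance of 0.33 with 590 tested genes closer.

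Of the 17 other ETS genes, 7 passed the filter and 0 were called by limma (0 at an unadjusted p under 0.05, also by limma-voom). Their median log2 difference was 0.0999. *Elf4*, *Erf* and *Etv3* were at the level of the middle members, at 35.0 to 40.8, 24.9 to 39.9 and 26.2 to 31.8 FPKM. *Erf*, a repressor of the family, was at 28.3, 25.0 and 24.9 FPKM in both controls and Foxa1/2cKO 1 and at 39.9 FPKM in Foxa1/2cKO 2, with a log2 difference of 0.24 (standard error 0.24). Without Foxa1/2cKO 2 this difference was -0.095, and without Foxa1/2cKO 1 it was 0.57. *Etv3* had a log2 difference of 0.0999 (standard error 0.11). *Elf5*, *Etv2* and *Fev* were listed at 0 in all 4 samples, where 3 reads would correspond to at most 0.27 FPKM, and the remaining 7 stayed under 1 FPKM in every sample.

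*Spi1* and *Spib*, which encode PU.1 and its relative SPI-B and are known for roles in myeloid and B cells, ordered the samples in another way than the members did. *Spib* was at 6.45 and 3.70 FPKM in controls 1 and 2, and at 7.41 and 4.37 FPKM in Foxa1/2cKO 1 and 2. *Spi1* was at 2.76 and 1.82 FPKM in controls and at 3.82 and 2.57 FPKM in Foxa1/2cKO. In both genes, control 1 and Foxa1/2cKO 1 lay above control 2 and Foxa1/2cKO 2. *Spib* was named after its values were seen. Its log2 difference of 0.18 had a standard error of 0.32, and that of *Spi1*, 0.35, had a standard error of 0.24.

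The B cell and myeloid markers split the samples in the same way, which is by replicate number. Among B cell markers, *Ms4a1*, *Cd79a* and *Pax5* (3 of 4, without *Cd79b*) were higher in both control 1 and Foxa1/2cKO 1 than in the other 2 samples, and so were all 5 myeloid markers (*Lyz2*, *Csf1r*, *Itgam*, *Cd68* and *Fcer1g*). The B cell markers summed to 56.2 and 39.1 FPKM in controls and to 76.3 and 43.0 FPKM in Foxa1/2cKO, and the myeloid markers to 34.2 and 21.0 FPKM in controls and to 33.0 and 16.9 FPKM in Foxa1/2cKO. No marker of either list was at 0. For each 100 FPKM of summed B cell markers there were 9.47 to 11.5 FPKM of *Spib* in the 4 samples. The part of such cells in the values of *Spi1* and *Spib* was not tested.

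**Figure D3:**
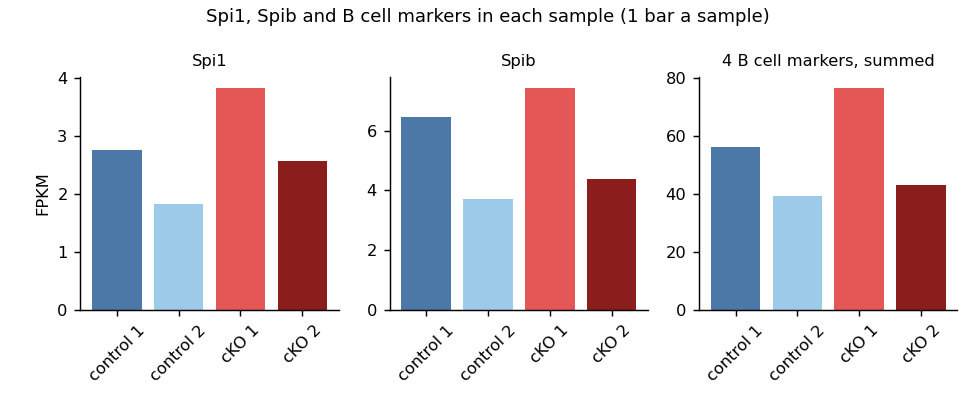
FPKM of *Spi1*, of *Spib* and of 4 B cell markers summed, with 1 bar for each sample and no error bar. In all 3 panels control 1 and Foxa1/2cKO 1 stand above control 2 and Foxa1/2cKO 2, for *Spib* at 6.45 and 7.41 against 3.70 and 4.37 FPKM.

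The partners that bind, activate or phosphorylate the members were all expressed, and 0 of 9 were called by limma (0 at an unadjusted p under 0.05, also by limma-voom), with a median log2 difference of 0.040. *Runx1*, which binds DNA jointly with ETS1, had the smallest p of the list. It was at 27.3 and 27.9 FPKM in controls and at 24.0 and 24.7 FPKM in Foxa1/2cKO, so that its groups did not overlap. Its log2 difference was -0.17 (standard error 0.083, 95% interval -0.39 to 0.046, limma adjusted p = 0.863). When single samples were dropped it stayed between -0.19 and -0.15. Of the 9 partners, 2 had both Foxa1/2cKO samples above both controls and 1, *Runx1*, had both below. Over all tested genes these shares were 18.9% and 17.8%. *Ep300*, a histone acetyltransferase that ELK and ETS proteins recruit, had a log2 difference of 0.12 (standard error 0.12). *Mrtfb*, listed as *Mkl2* and encoding an SRF coactivator, had one of 0.13 (standard error 0.14). *Mapk3*, which encodes the kinase ERK1, was at 35.6 to 37.6 FPKM.

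Among 10 immediate early genes that SRF and TCF proteins are known to drive, 0 were called by limma (0 at an unadjusted p under 0.05, also by limma-voom). The log2 difference was above 0 in 5 and below 0 in 5, with a median of -0.023. *Junb*, an AP-1 subunit, was at 61.2 and 59.9 FPKM in controls and at 54.7 and 51.3 FPKM in Foxa1/2cKO, a log2 difference of -0.19 (standard error 0.084, 95% interval -0.41 to 0.032). *Mcl1*, which encodes an anti-apoptotic protein of the BCL2 family, was at 112 and 107 FPKM in controls and at 119 and 142 FPKM in Foxa1/2cKO, a log2 difference of 0.25 (standard error 0.11, 95% interval -0.056 to 0.55). *Zfp36*, which encodes an mRNA decay factor, was at 106 and 91.2 FPKM in controls and at 73.0 and 91.1 FPKM in Foxa1/2cKO, a log2 difference of -0.27 (standard error 0.15). Of the 10 genes, 3 had both Foxa1/2cKO samples below both controls, *Junb* and *Zfp36* among them, and 1, *Mcl1*, had both above. Over all tested genes these shares were 17.8% and 18.9%. For *Zfp36* the gap between control 2 and Foxa1/2cKO 2 was under 1 FPKM. Without Foxa1/2cKO 1 the log2 difference was -0.23 for *Junb* and 0.37 for *Mcl1*, and without Foxa1/2cKO 2 it was -0.14 and 0.12.

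*Egr1*, an immediate early gene with SRF and TCF sites in its promoter, was named after its values were seen. It was at 167 and 137 FPKM in controls and at 117 and 196 FPKM in Foxa1/2cKO, which put the Foxa1/2cKO samples on either side of the controls. Its log2 difference was 0.0036 with a 95% interval of -0.71 to 0.72, so changes within that range, in either direction, could not be told from 0.

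Of 7 cytoskeletal genes on the MRTF side of SRF, 6 passed the filter and 0 were called by limma (0 at an unadjusted p under 0.05, also by limma-voom), with a median log2 difference of 0.084. *Flna*, which encodes an actin crosslinker, was at 165 and 147 FPKM in controls and at 166 and 186 FPKM in Foxa1/2cKO, a log2 difference of 0.17 (standard error 0.11). *Myh9* and *Actg1*, for non-muscle myosin and cytoplasmic actin, had log2 differences of 0.10 (standard error 0.10) and 0.099 (standard error 0.12). *Myl9* was listed at 0 in all 4 samples, where 3 reads would correspond to at most 0.24 FPKM.

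Of 6 genes known as GABP targets, 0 were called by limma (0 at an unadjusted p under 0.05, also by limma-voom), with a median log2 difference of -0.042. *Tfam*, the mitochondrial transcription factor, was at 18.5 and 21.4 FPKM in controls and at 19.0 and 16.0 FPKM in Foxa1/2cKO, and *Tfb2m*, another factor of mitochondrial transcription, had a log2 difference of 0.079 (standard error 0.14). *Il7r*, the IL-7 receptor chain that GABP drives in T cells and that is also in the list of mature SP markers, was at 33.7 and 44.1 FPKM in controls, at 41.5 FPKM in Foxa1/2cKO 1 and at 13.4 FPKM in Foxa1/2cKO 2. Its log2 difference of -0.68 had a standard error of 0.53. It was 0.10 without Foxa1/2cKO 2 and -1.46 without Foxa1/2cKO 1.

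**Figure D4:**
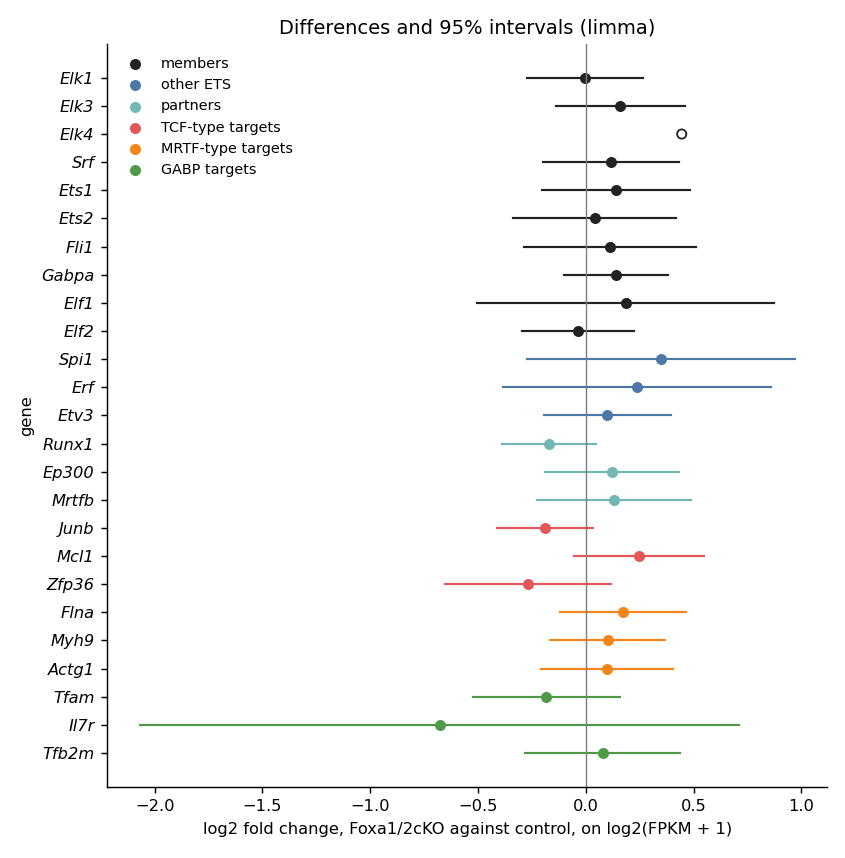
Log2 difference, Foxa1/2cKO against control, on log2(FPKM + 1), for the members and the 3 genes with the smallest p of each other list. Bars are 95% intervals from limma, and the open point of *Elk4* has none because it was chosen for its difference. Every drawn interval includes 0, and that of *Il7r* (-2.07 to 0.71) is the widest.

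Some members share exon bases with other genes in the GENCODE vM21 annotation. Union counting leaves out reads on bases shared in the annotation counted, of 1 strand and, if strand was not used, of both. The authors used RefSeq genes, so the GENCODE shares below need not be bases left out of these values. *Elk4* shared 2.93% of its exon bases with *Gm29103* and *Mfsd4a*, *Elk3* 6.95% with *Cdk17*, *Gabpa* 6.98% with *Atp5j*, *Elf1* 4.85% with *Wbp4*, *Elf2* 3.88% with *4930577N17Rik* and *Elk1* 1.41% with *Uxt*. No such overlap was annotated for *Srf*, *Ets1*, *Ets2* and *Fli1*. Of the 50-base stretches of the longest transcript, 2.14% for *Elk4* and 9.41% for *Elf1* were also found in another annotated gene, the highest share among the members being that of *Elf1*.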

How the data were processed

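RNA of FACS-sorted CD69+DP thymocytes was sequenced from 2 control and 2 Foxa1/2cKO samples. The authors used mm10 and RefSeq genes for alignment and the union mode of HTSeq for counting. The authors tested genes with DESeq2 and fdrtool. The paper counts *Elk4* among its differentially expressed genes, as higher in Foxa1/2cKO. That test on counts is unlike limma on FPKM, so the numbers of genes called are not comparable. The deposited table gives an FPKM value for every gene in every sample. The tool that made them and the strand setting are not given in the sources used here.

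Steps between the FPKM values of a gene gave back whole reads (tolerance 0.002 reads), apart from a possible common divisor, in 100% of 16069 genes above 0. Limits of 3 reads for genes at 0 cover counting error only. A multiplier was needed to give a whole gene length in 4.14% of 9530 genes over 50 reads.

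With this unit, log2(FPKM + 1) over all 4 samples was fitted by limma 3.58.1 (R 4.3.3), with a mean-variance trend and Benjamini-Hochberg adjustment over 10776 genes that reached an FPKM of 1 in 2 or more samples. Fold changes on this scale understate those of low genes. The fit had 2 residual and 2.69 prior degrees of freedom and was tested on simulated data. An exact two-sided permutation test of 2 against 2 samples cannot go below 0.333.

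The members and lists were chosen with earlier results of these data known. Named were the 10 members, in each other list genes past the threshold and the 3 with the smallest p, and the 3 profiles nearest to *Elk4*. Marker genes were named where a result turned on them. Lists of preselection DP, erythroid and thymic epithelial markers were also read. Results of 4 genes of the marker and partner lists are not reported here, and sums and counts leave them out. Preselection DP markers summed to 802 to 910.4 FPKM, erythroid markers to 0.608 to 2.67 FPKM with *Hbb-bs*, *Hbb-bt* and *Hba-a1* listed at 0, and thymic epithelial markers to 3.18 to 4.18 FPKM. Alternatives were a pseudocount of 0.1, no filter, upper-quartile scaling, a replicate block, a length correction with and without the block, limma-voom on recovered reads and leaving out each sample. Scaling to recovered reads was chosen after seeing the data. Gene positions come from GENCODE vM21. Python 3.11.15, pandas 2.3.3 and matplotlib 3.10.9 made tables and figures.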

Additional observations from a re-analysis of the deposited data

How the results depend on the processing

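With 2 samples a group, leaving out 1 sample moved the results most. The number of genes called by limma, 1 in all 4 samples, ranged from 0 to 2559 when single samples were dropped, being 2559 without Foxa1/2cKO 1, 19 without Foxa1/2cKO 2 and 0 without either control. Over the same fits the count ranged from 0 to 6 for the members, from 0 to 1 for other ETS genes, from 0 to 2 for TCF-type SRF targets, from 0 to 1 for MRTF-type SRF targets and from 0 to 1 for GABP targets. Each highest count came without Foxa1/2cKO 1, and partner genes stayed at 0.

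The 1 gene called was lost (0 calls) with a pseudocount of 0.1, with no filter on low values, with upper-quartile scaling, with limma-voom on recovered reads and with scaling to recovered reads. With the replicate block 1 gene was called, and also with the length correction, alone or with the block. Over all tested genes, samples that share a replicate number did not deviate together from their group means (correlation -0.059). *Spi1*, *Spib*, 3 of 4 B cell markers and all 5 myeloid markers did split by replicate number. The labels do not say what the number marks, so the numbers were not taken as pairs, and the block called 0 members.

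Signs turned in 10 of the 25 named genes tested or described. The log2 difference of *Elk1* was 0.0072 with the length correction, alone or with the block. With each sample left out it ranged from -0.051 to 0.043 for *Elk1*, from -0.019 to 0.26 for *Srf*, from -0.0096 to 0.29 for *Ets1*, from -0.14 to 0.22 for *Ets2*, from -0.083 to 0.31 for *Fli1*, from -0.20 to 0.57 for *Elf1*, from -0.12 to 0.045 for *Elf2*, from -0.095 to 0.57 for *Erf*, from -1.46 to 0.10 for *Il7r* and from -0.029 to 0.19 for *Tfb2m*. The difference of *Elk4* ranged from 0.27 to 0.62 in these fits and from 0.41 to 0.46 under the other alternatives. Of 300 values of 25 genes under 12 alternatives, 275 kept their direction and their side of the threshold, or, for *Elk4*, moved by less than the standard error. In this balanced design the replicate block cannot change a log2 difference, so its values repeat those of the fits without it. None of the named genes tested was called with all samples in, so staying on that side of the threshold says little.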
